A study of Mus musculus with 6 samples.

Results

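The 42 collagen genes described here were measured by bulk RNA-seq of γδ T cells sorted from the gastrointestinal stromal tumors (GIST) of Kit V558del/+ mice, with 3 libraries on vehicle and 3 on imatinib. They are the gene symbols of the form Col, number, a, number that had at least 1 read count summed over the 6 libraries, out of 53153 symbols in the table. By the structure of the protein, 10 were fibrillar, 6 basement membrane, 6 beaded and 20 other collagens. The symbols Col2a1 and Col9a1 lay outside the rule, with no count in any library. The members just inside it were Col10a1 and Col26a1, with 4 counts each over the 6 libraries.

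The mice were C57BL/6J, aged 8 to 10 weeks, and all of them carried the mutant Kit allele, so that both groups bore tumors and no group lacked the mutation. The treated mice drank water with 600 mg/L imatinib, an inhibitor of the KIT kinase, over 1 week. The 6 libraries share 1 batch label. Whether each library came from its own mouse is not in the labels, and the tests therefore gauge only how far libraries vary. The cells were sorted by the study as CD45+CD3+NK1.1-TCRγδ+, whereas the series description speaks of regulatory T cells and also of lymph node. Trdc, which encodes the δ chain constant region, was at 505, 673 and 373 CPM (counts per library scaled by TMM to a common total) in vehicle 1, 2 and 3 and at 1237, 850 and 1038 in imatinib 1, 2 and 3. Foxp3, which defines regulatory T cells, did not exceed 0.775 CPM. The libraries also held transcripts of other cells. The sum of 7 macrophage markers had a mean of 10790 CPM on vehicle and 7232 on imatinib. That of 5 γδ T cell markers had means of 1121 and 2028. The collagen values are therefore those of whole libraries and cannot be assigned to γδ T cells. Total counts of named genes lay between 21333897 and 25214210 per library.

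Collagens are triple-helical proteins of the extracellular matrix, and they are made chiefly by fibroblasts and other mesenchymal cells rather than by lymphocytes. Fibrillar collagens build the load-bearing fibers of connective tissue, collagen IV forms the sheet under endothelium and epithelium, and collagen VI assembles into beaded microfibrils around cells. Other collagens decorate fibrils, form networks or sit in the cell membrane. Levels are CPM, in the order vehicle 1, 2, 3 and then imatinib 1, 2, 3. The words rose and fell are kept for genes with an adjusted p under 0.05 by the quasi-likelihood test of edgeR, adjusted after Benjamini and Hochberg over the 16621 genes tested.

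Collagen transcripts were a small part of every library. They made up 0.0342%, 0.0567% and 0.0701% of the counts on vehicle and 0.122%, 0.0605% and 0.0868% on imatinib, so the groups overlapped. Of the 42 genes, 30 passed the filter on low counts and 12 did not. Among the 30, Col5a2 and Col8a2 rose, Col14a1 and Col9a3 fell, and 26 did not pass the test. Across all genes tested, 6.15% rose and 8.42% fell (14.6% in either direction), which is the background for these counts. At an unadjusted p under 0.05 there were 12 collagens higher and 4 lower, against 14.2% and 16.8% of all genes. DESeq2 gave no adjusted p for Col10a1, Col22a1 and Col26a1. Of the other collagens it called 9 higher and 2 lower, against 6.84% and 9.37% of 20809 genes. Limma voom with quality weights called 7 higher and 2 lower (all genes 7.03% and 9.02%), and edgeR with no filter on low counts 4 and 2 (all genes 3.68% and 5.72%). The median log2 fold change of the 30 genes was 0.84, that of all genes 0.01. A low gene could pass the filter through the group in which it was high, so the median describes the genes tested and not the whole family. In bulk libraries, fewer cells of a type and less RNA per cell cannot be told apart.

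**Figure D1:**
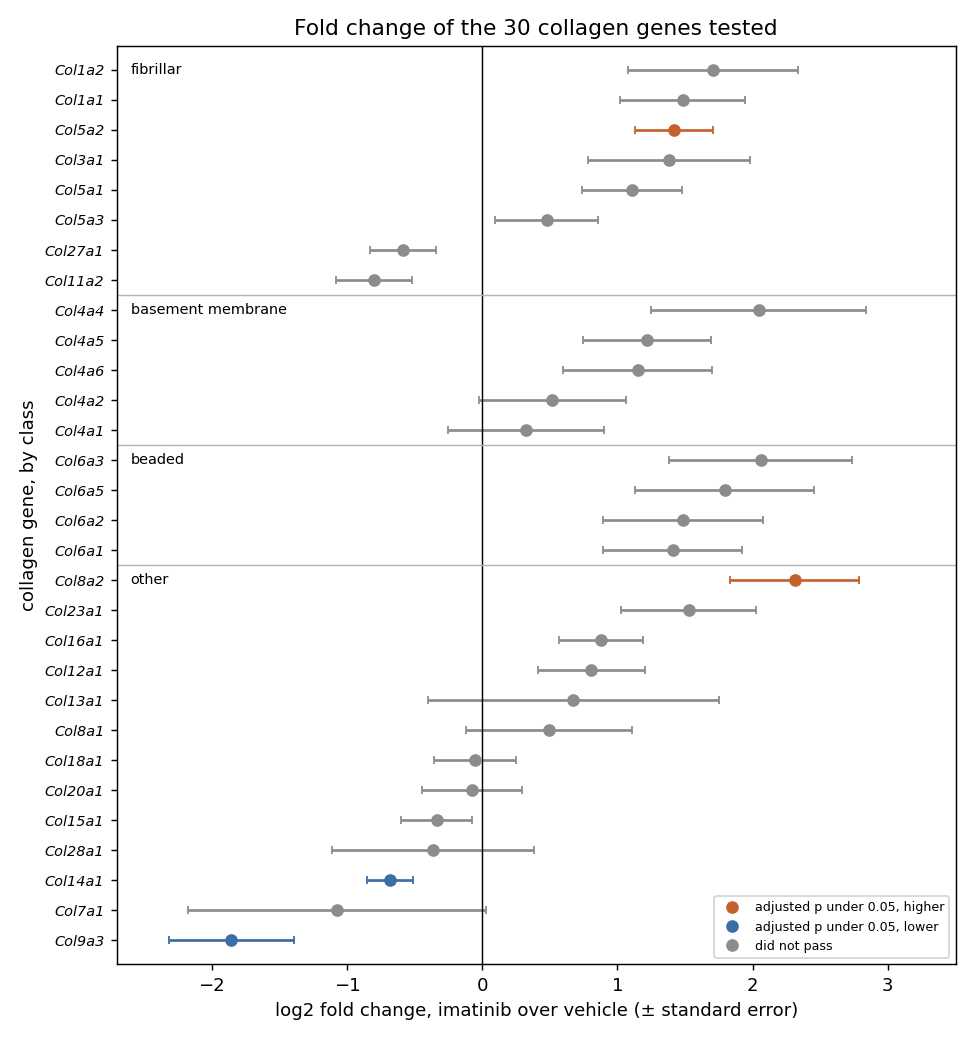
Log2 fold change of imatinib over vehicle (x axis, edgeR, error bars are standard errors) for the 30 collagen genes tested (y axis), grouped by class. All beaded and basement membrane genes tested lie to the right of 0 (under CD3 scaling Col4a1 and Col4a2 lie to the left), but the only genes past the test are Col5a2 and Col8a2 (orange) and Col14a1 and Col9a3 (blue). Which genes are shown depends on the filter. Col4a4 passed it through the imatinib libraries, and Col6a4 (24 counts on vehicle, 18 on imatinib) did not pass. Without imatinib 1, Col4a1 was at -0.09.

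Fibrillar collagens were the most abundant class on imatinib. The chains of collagen I, the main protein of skin, bone and scar, were higher in each imatinib library than in any vehicle library, without passing the test. Col1a1, which encodes the α1 chain, was at 21.0, 56.6 and 62.9 CPM on vehicle and 167, 94.3 and 132 on imatinib. Its log2 fold change was 1.48 (standard error, SE, 0.46, edgeR adjusted p = 0.0933). Col1a2, the partner chain, was at 19.1, 61.6 and 67.9 CPM on vehicle and 221, 85.5 and 178 on imatinib (log2 fold change 1.71, edgeR adjusted p = 0.149). In both genes the lowest value came from vehicle 1 and the highest from imatinib 1, while imatinib 2 lay closest to the vehicle libraries. Leaving out vehicle 1 lowered the log2 fold change of Col1a1 to 1.11 and brought it past the test (edgeR adjusted p = 0.0466).

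Col3a1, the chain of collagen III, which accompanies collagen I in soft tissue, was at 20.8, 89.8 and 61.4 CPM on vehicle and 205, 114 and 129 on imatinib, a log2 fold change of 1.38 (SE 0.60, edgeR adjusted p = 0.20). The groups did not overlap, but vehicle 2 reached 89.8 against 114 in imatinib 2. Collagen V forms the core on which collagen I fibrils are laid down. Col5a2 rose from 4.90, 8.90 and 7.66 CPM on vehicle to 26.3, 15.8 and 15.2 on imatinib, a 2.67-fold difference (log2 fold change 1.42, standard error 0.29, edgeR adjusted p = 0.0188). Every imatinib library was above every vehicle library, with imatinib 1 apart from the other two. The call was lost without vehicle 1 (edgeR adjusted p = 0.0602) and without vehicle 3 (0.0592). Col5a1, the α1 chain of the same protein, was at 4.37, 11.5 and 8.57 CPM on vehicle and 24.0, 14.5 and 14.2 on imatinib, separated in the same direction but not past the test (log2 fold change 1.11, edgeR adjusted p = 0.0832). Col5a3, the minor chain, stayed between 1.55 and 3.93 CPM with overlapping groups (log2 fold change 0.48).

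The fibrillar genes Col27a1 and Col11a2 lay on the other side of 0. Col27a1, a fibrillar collagen best known from cartilage, was at 17.7, 19.7 and 19.5 CPM on vehicle and 10.5, 9.30 and 18.1 on imatinib (log2 fold change -0.59, edgeR adjusted p = 0.144). Imatinib 3 lay within the vehicle range, and without it Col27a1 had a log2 fold change of -0.94 and passed the test (edgeR adjusted p = 0.0349). Col11a2, a chain of collagen XI, was at 4.86, 5.54 and 5.34 CPM on vehicle and 3.30, 3.46 and 2.27 on imatinib. All imatinib libraries were below all vehicle libraries, and the test was not passed (log2 fold change -0.80, edgeR adjusted p = 0.0903). Unlike those of collagens I, III and V, the vehicle values of both genes differed little from each other.

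**Figure D2:**
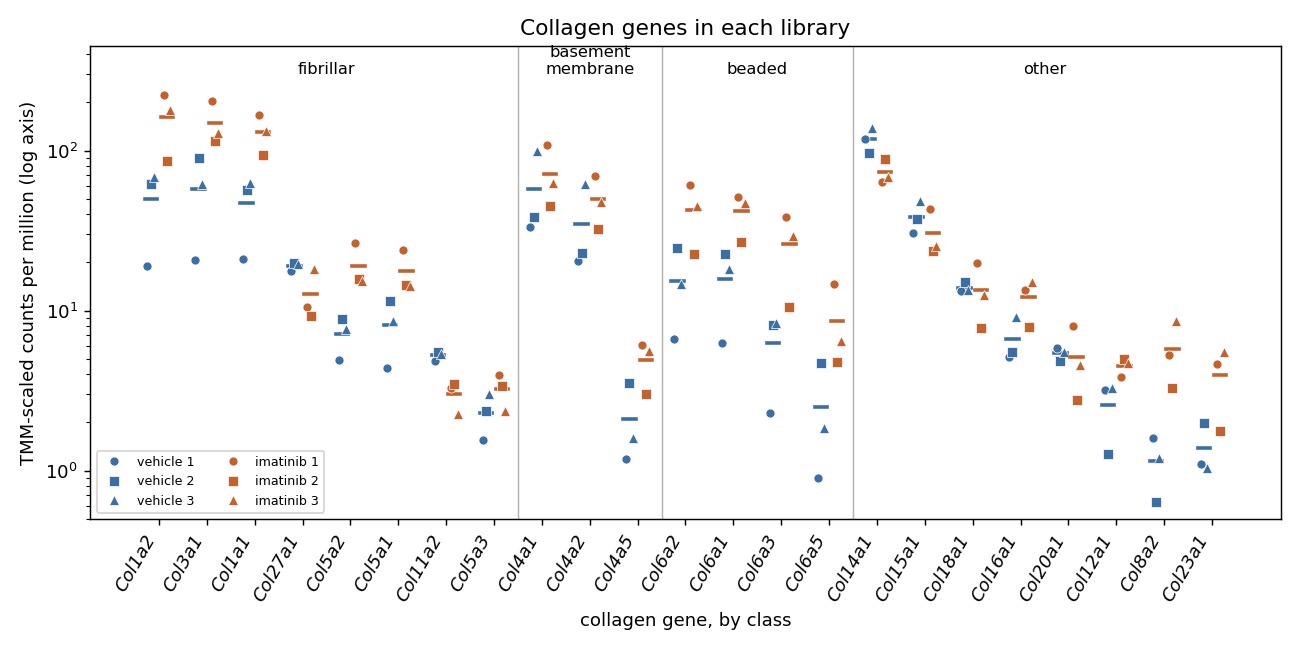
Level of each collagen gene with a mean of at least 2 CPM (y axis, TMM-scaled CPM, log axis) in each of the 6 libraries, grouped by class, with bars at the group means. Vehicle 1 (blue circles) is the lowest vehicle library for the fibrillar, basement membrane and beaded genes shown, whereas Col14a1 lies at 63.2 to 89.0 on imatinib against 96.7 to 138 on vehicle.

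Per kilobase of transcript, the scale on which genes can be compared, Col1a2, Col3a1 and Col1a1 had means of 19.7, 18.6 and 15.0 CPM per kb over the 6 libraries. The FACIT collagen Col14a1 stood at 14.8, followed by Col4a1 at 9.74, Col6a2 at 7.33, Col6a1 at 6.99, Col15a1 at 6.69 and Col4a2 at 6.58. The other fibrillar chains that passed the filter were lower, from 2.08 for Col27a1 down to 0.452 for Col5a3, and Col11a1 (0.0187) and Col24a1 (0.0150), which did not pass it, were lower still. The order changed between libraries. In vehicle 1, Col14a1 was at 18.3 CPM per kb against 3.54 for Col1a1, and in imatinib 1 at 9.79 against 28.2.

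No basement membrane collagen passed the test. Col4a1 and Col4a2, the chains of the collagen IV found in nearly all basement membranes, sit head to head on chromosome 8 (GRCm38), with starts that share 22 bases on opposite strands. Col4a1 was at 33.1, 38.7 and 99.96 CPM on vehicle and 108, 44.8 and 62.6 on imatinib, a log2 fold change of 0.32 (SE 0.58, edgeR adjusted p = 0.754). Col4a2 was at 20.4, 22.8 and 61.7 CPM on vehicle and 69.7, 32.5 and 47.8 on imatinib (log2 fold change 0.52, edgeR adjusted p = 0.576). Both genes overlapped between the groups, since vehicle 3 was nearly as high as imatinib 1. Without vehicle 3 the log2 fold changes were 1.00 and 1.21, and without imatinib 1 that of Col4a1 was -0.09. The chains of specialised basement membranes, as in the kidney and the muscle coat, were far lower and lay higher on imatinib. Col4a5 and Col4a6, head to head on the X chromosome, had log2 fold changes of 1.22 and 1.15 (edgeR adjusted p = 0.117 and 0.195), and imatinib was above vehicle in each library for Col4a6 only. Col4a4 was at 0.0816, 0.0908 and 0.344 CPM on vehicle and 0.814, 0.791 and 0.579 on imatinib, a log2 fold change of 2.04 (SE 0.79, edgeR adjusted p = 0.117). Col4a4 passed the filter on low counts through the imatinib libraries. Its head-to-head neighbour on chromosome 1, Col4a3, did not pass the filter, with 2 counts on vehicle and 29 on imatinib.

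The beaded collagen VI genes had the highest median log2 fold change of the 4 classes, 1.64 over 4 tested genes, and none of them passed the test. Col6a1, whose chain is shared by all collagen VI molecules, was at 6.28, 22.6 and 18.2 CPM on vehicle and 51.2, 27.0 and 46.7 on imatinib, a log2 fold change of 1.41 (SE 0.51, edgeR adjusted p = 0.129). Col6a2, its neighbour on chromosome 10, was at 6.69, 24.5 and 14.6 CPM on vehicle and 60.8, 22.4 and 44.8 on imatinib (log2 fold change 1.48, edgeR adjusted p = 0.167). Col6a1 was separated between the groups, whereas for Col6a2 imatinib 2 was below vehicle 2. Col6a3, which encodes the largest of the classical chains, was at 2.29, 8.09 and 8.35 CPM on vehicle and 38.3, 10.5 and 29.1 on imatinib, separated but uneven (log2 fold change 2.06, standard error 0.68, edgeR adjusted p = 0.104). Col6a5, a later-described relative of Col6a3, was at 0.898, 4.72 and 1.85 CPM on vehicle and 14.6, 4.75 and 6.46 on imatinib (log2 fold change 1.79, edgeR adjusted p = 0.115). The nearest values of the groups, 4.72 in vehicle 2 and 4.75 in imatinib 2, were almost equal. In all 4 genes vehicle 1 was the lowest vehicle library and imatinib 2 the lowest imatinib library.

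Promoter sequence was read from RefSeq (GRCm38.p6) as the 250 bases before each transcription start, which was given for 34 of the 42 genes. Col1a1, Col5a2, Col14a1 and Col9a3 are among the genes without an entry in the table used. The motif GGGCGG, read on both strands, occurred in 21 of the 34 windows (61.8%) and in 32.9% of 27025 promoters of all genes. CCAAT was found in 12 windows (35.3%, all genes 34.5%) and TATAA in 6 (17.6%, all genes 23.5%). These are matches of letters and no measure of binding. The 120 bases before the start are given for Col3a1, Col5a1 and Col6a3, which were separated upwards and represent the main fibrillar, the fibril core and the beaded genes, and for Col11a2, which was separated downwards. Capitals mark GGGCGG or its reverse complement CCGCCC, and in Col3a1 TATAA overlapping its reverse complement TTATA. Col6a3 holds none of these motifs.
Col3a1, plus strand, chr1:45311418-45311537: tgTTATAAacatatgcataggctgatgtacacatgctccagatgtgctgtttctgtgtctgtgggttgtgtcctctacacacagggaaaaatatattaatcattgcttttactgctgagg
Col5a1, plus strand, chr2:27886305-27886424: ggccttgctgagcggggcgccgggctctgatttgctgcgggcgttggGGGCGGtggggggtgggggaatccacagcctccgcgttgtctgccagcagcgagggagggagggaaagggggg
Col6a3, minus strand, chr1:90843972-90844091: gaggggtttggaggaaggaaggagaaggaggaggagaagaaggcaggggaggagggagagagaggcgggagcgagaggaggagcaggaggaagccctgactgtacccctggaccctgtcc
Col11a2, plus strand, chr17:34039018-34039137: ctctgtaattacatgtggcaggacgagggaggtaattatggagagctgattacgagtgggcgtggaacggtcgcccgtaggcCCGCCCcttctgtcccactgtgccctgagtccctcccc

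The remaining collagens did not share a direction. Their 13 tested genes had a median log2 fold change of -0.05, with 1 gene that rose, 2 that fell and 10 that did not pass. Col14a1 encodes collagen XIV, a member of the FACIT group that binds to the surface of collagen I fibrils. It had the highest CPM of the collagens in every vehicle library, and the highest per kilobase in vehicle 1 and 3. It fell from 118, 96.7 and 138 CPM on vehicle to 63.2, 89.0 and 68.3 on imatinib, a log2 fold change of -0.68 (SE 0.17, edgeR adjusted p = 0.0343). The groups did not overlap, although imatinib 2, at 89.0, came close to vehicle 2, at 96.7. Leaving out vehicle 1, vehicle 3, imatinib 1 or imatinib 3 took the call away (edgeR adjusted p = 0.0947, 0.105, 0.0809 and 0.114), with log2 fold changes from -0.70 to -0.55.

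Col9a3, a chain of the FACIT collagen IX of cartilage, fell from 2.20, 2.14 and 2.97 CPM to 0.678, 0.890 and 0.446, a 3.62-fold difference at a low level (log2 fold change -1.86, standard error 0.46, edgeR adjusted p = 0.033). All imatinib libraries were below 1 CPM and all vehicle libraries above 2. The call was kept without imatinib 2 and lost when any of the other 5 libraries was left out (edgeR adjusted p = 0.0636 to 0.12). Its exons overlap Tcfl5 on the opposite strand by 234 bases, and Tcfl5 itself had a single count, in vehicle 3. Col16a1, another FACIT collagen, was at 5.14, 5.54 and 9.13 CPM on vehicle and 13.4, 7.92 and 15.1 on imatinib, overlapping through imatinib 2 (log2 fold change 0.88, edgeR adjusted p = 0.0923). Col12a1, the closest relative of Col14a1, was at 3.18, 1.27 and 3.27 CPM on vehicle and 3.84, 4.996 and 4.72 on imatinib, separated upwards and not past the test (log2 fold change 0.81, edgeR adjusted p = 0.202).

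Col8a2, a short-chain network collagen known from the membrane beneath the corneal endothelium, showed the largest fitted fold change among the 30 genes. It rose from 1.59, 0.636 and 1.21 CPM on vehicle to 5.29, 3.27 and 8.60 on imatinib, a 4.97-fold difference (log2 fold change 2.31, standard error 0.48, edgeR adjusted p = 0.0184). Every imatinib library was above every vehicle library. The call was lost without vehicle 2, vehicle 3 or imatinib 3 (edgeR adjusted p = 0.062, 0.0597 and 0.0722). Col8a1, which encodes the other chain of collagen VIII, was at 1.14, 1.05 and 2.02 CPM on vehicle and 0.904, 3.81 and 1.25 on imatinib, with overlapping groups (log2 fold change 0.49, standard error 0.61). Imatinib 2 held the highest value, and without it the log2 fold change of Col8a1 was -0.40.

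The multiplexins Col15a1 and Col18a1, proteoglycan collagens of basement membrane zones, did not pass. Col15a1 was at 30.5, 37.2 and 48.1 CPM on vehicle and 43.0, 23.4 and 25.4 on imatinib (log2 fold change -0.34, edgeR adjusted p = 0.43). Col18a1, the source of endostatin, was at 13.3, 15.0 and 13.4 CPM on vehicle and 19.8, 7.82 and 12.5 on imatinib (log2 fold change -0.05, edgeR adjusted p = 0.926). For both, imatinib 1 was the highest imatinib library and imatinib 2 the lowest. The transmembrane collagen Col23a1 had a log2 fold change of 1.53 (edgeR adjusted p = 0.0737), with imatinib 2, at 1.78 CPM, inside the vehicle range of 1.03 to 2.00. Col20a1 (log2 fold change -0.08), Col28a1 (-0.36), Col13a1 (0.67) and the anchoring fibril gene Col7a1 (-1.07) overlapped between the groups and had standard errors of 0.37 to 1.10. These values rested on single libraries. Without imatinib 2, Col7a1 was at -3.30, Col20a1 at 0.20, Col28a1 at 0.11 and Col18a1 at 0.20. Without imatinib 3, Col7a1 was at -0.49 and Col13a1 at -0.09 (log2 fold changes, none past the test).

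The 12 genes under the filter on low counts are given by their counts. Tested by edgeR with no filter, none of them passed (adjusted p = 0.0805 to 0.908), while DESeq2 called Col19a1 higher (adjusted p = 0.0274), on 33 counts in all. Col25a1 had no count on vehicle and 2, 11 and 7 counts on imatinib. Against a floor of 3 counts over the vehicle group, and scaled to total counts, that is 7.0-fold higher. This takes the imatinib counts as observed, without their spread, and is no lower bound. Summed over the 3 libraries of each group, Col19a1 had 1 count on vehicle and 32 on imatinib, Col9a2 had 6 and 34, Col17a1 6 and 26, Col11a1 3 and 16, and Col24a1 2 and 12. Col6a6 had 6 and 12 counts, Col22a1 2 and 5, and Col26a1 1 and 3. Col6a4, with 24 and 18, and Col10a1, with 4 and 0, had more counts on vehicle.

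Summed over its 10 genes, the fibrillar class was at 94.3, 256 and 236 CPM on vehicle and 663, 340.5 and 491 on imatinib, a ratio of means of 2.55. The beaded sum was at 16.8, 60.6 and 43.0 CPM on vehicle and 166, 64.8 and 128 on imatinib, a ratio of 2.97. For both sums every imatinib library was above every vehicle library, by a narrow margin for the beaded genes in imatinib 2. Basement membrane collagens, at 55.2, 67.0 and 165 CPM on vehicle and 187, 83.4 and 120.1 on imatinib, overlapped. The other collagens, at 185, 169 and 229 CPM on vehicle and 166, 150.3 and 152 on imatinib, were lower in every imatinib library. Per count of Cd3d, Cd3e and Cd3g, a scale chosen after seeing the data, the fibrillar sum was at 0.185, 0.403 and 0.666 on vehicle and 0.728, 0.525 and 0.582 on imatinib, and the groups overlapped, as they did for the beaded sum (0.0330 to 0.121 and 0.0998 to 0.182). The basement membrane sum turned downwards on that scale, with means of 0.226 on vehicle and 0.159 on imatinib. Without Col14a1 the sum of the other collagens was 66.9, 72.6 and 90.8 CPM on vehicle and 103, 61.3 and 83.4 on imatinib, with overlapping groups.

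**Figure D3:**
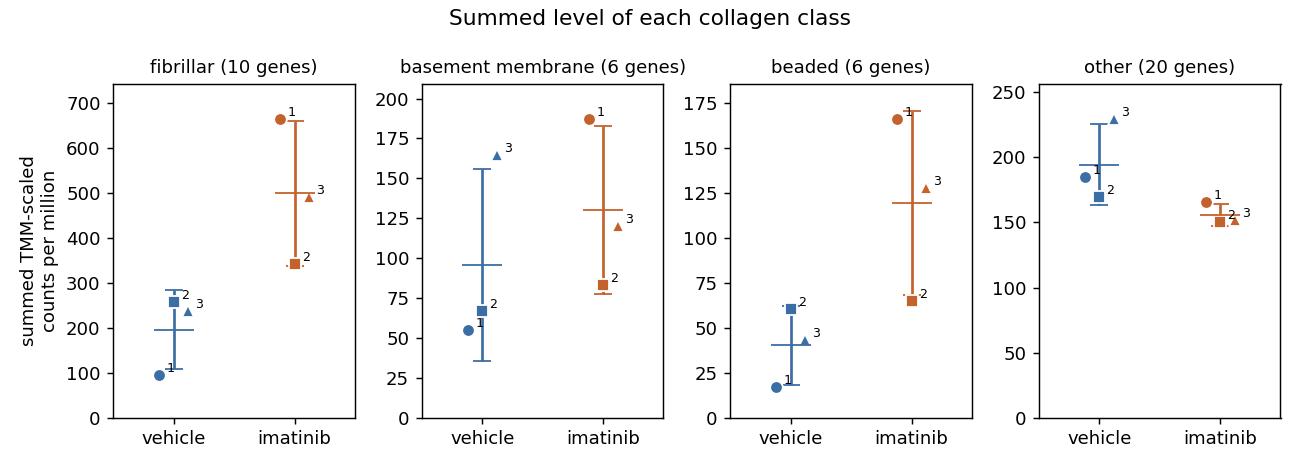
Summed TMM-scaled CPM (y axis) of each collagen class in the vehicle and imatinib libraries, with the library number beside each point, the mean as a horizontal line and the SD (n = 3) as error bars. On this scale fibrillar and beaded sums are higher in every imatinib library (per CD3 count the groups overlap), the basement membrane sums overlap, and vehicle 1 is the lowest vehicle library in all classes but the last.

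The same counts can be given as shares of all collagen counts, where a higher share of one class lowers the others. Fibrillar genes held 26.8%, 46.3% and 35.1% of collagen counts on vehicle and 56.1%, 53.3% and 55.2% on imatinib. Col14a1 alone held 33.6%, 17.5% and 20.6% on vehicle and 5.36%, 13.9% and 7.68% on imatinib. Neither share overlapped between the groups, and the fibrillar share was more uniform on imatinib than on vehicle. The basement membrane and beaded shares overlapped. No test was run on the shares. The shares rest on 8611 to 15631 collagen counts per vehicle library and 12918 to 26123 per imatinib library.

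Over all 30 tested genes, every imatinib library was above every vehicle library for 12 genes (background 17.5% of all genes) and below for 3 (background 20.2%), and 15 overlapped. The upward-separated genes comprised 5 fibrillar, 2 basement membrane, 3 beaded and 2 other collagens. The 3 separated downwards were Col11a2, Col14a1 and Col9a3. Single libraries moved many genes together. Vehicle 1 was the lowest vehicle library for 21 of the 30 genes, among them all 8 fibrillar, all 5 basement membrane and all 4 beaded genes. Imatinib 2 was the lowest imatinib library for 20 and imatinib 1 the highest for 17.

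Markers of matrix-producing cells varied over the same libraries. The sum of 9 fibroblast markers, which include the defining genes Pdgfra and Dcn, was at 11.4, 46.1 and 37.8 CPM on vehicle and 96.1, 62.2 and 106 on imatinib, so vehicle 1 was again the lowest. None of the 8 fibroblast markers tested passed the test, and no defining marker was at 0 throughout. The 6 markers of GIST and of interstitial cells of Cajal, the cells GIST is thought to arise from, summed to 34.8, 32.4 and 43.3 CPM on vehicle and 326, 90.8 and 233 on imatinib, and 4 of them rose (6.15% of all genes). Kit, the mutated receptor itself, rose from 21.1, 20.7 and 19.6 CPM to 196, 61.0 and 142 (log2 fold change 2.70, standard error 0.43, edgeR adjusted p = 0.0173), and Ano1, the chloride channel used in the diagnosis of GIST, went from 2.61, 2.27 and 4.78 to 66.1, 9.20 and 38.8 (log2 fold change 3.56, edgeR adjusted p = 0.0565). The part of these cells in the higher collagen values was not tested.

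**Figure D4:**
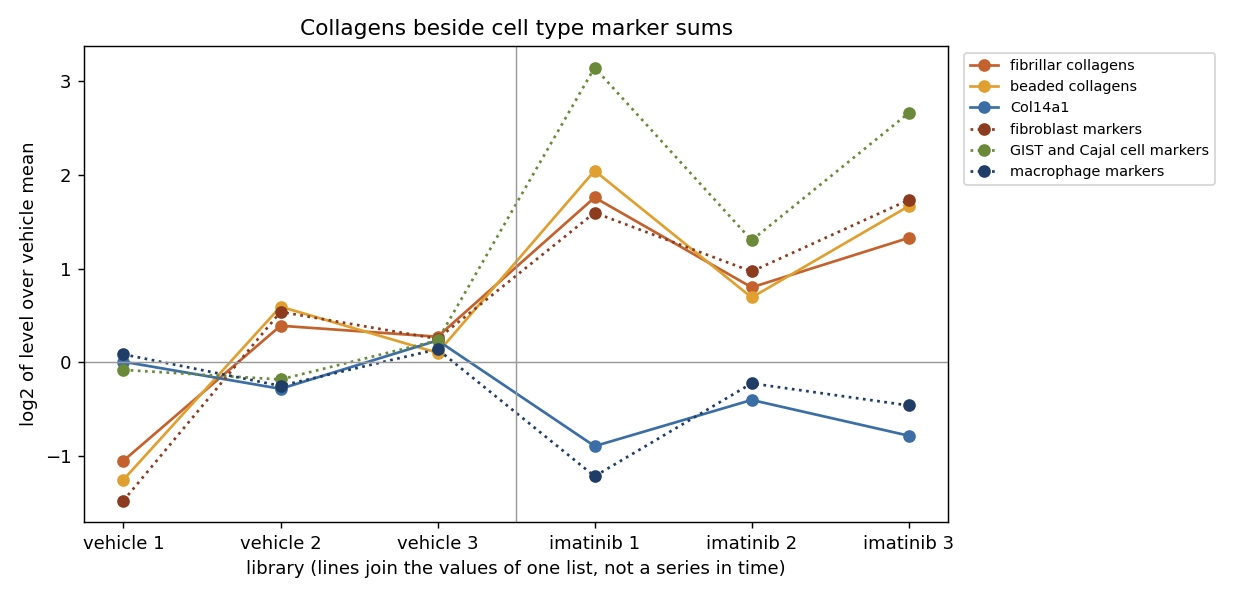
Log2 of each level over its vehicle mean (y axis) in the 6 libraries (x axis) for the fibrillar and beaded sums and Col14a1 (solid) and for 3 sums of cell type markers (dotted). The fibrillar, beaded and fibroblast lines are lowest in vehicle 1, while Col14a1 and the macrophage markers lie below 0 in every imatinib library.

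Macrophage markers moved the other way. The sum of 7 such genes was at 11440, 9060 and 11880 CPM on vehicle and 4637, 9226 and 7835 on imatinib, with overlapping groups, and none of the 7 passed the test. C1qa, a complement gene of tissue macrophages, was at 3128, 2461 and 3073 CPM on vehicle and 1092, 2435 and 1851 on imatinib, and C1qb had a log2 fold change of -0.62 (edgeR adjusted p = 0.16). The part of macrophages in the lower Col14a1 values was not tested. Marker sums of smooth muscle and pericytes (58.1 to 71.3 CPM on vehicle, 66.5 to 107 on imatinib), endothelium (90.6 to 144 and 101 to 139), glia (4.13 to 7.19 and 2.82 to 7.46), epithelium (198 to 317 and 211 to 441), neutrophils (89.9 to 131 and 115 to 360, mostly Csf3r on vehicle) and B and plasma cells (646 to 4436 and 4123 to 5409) overlapped between the groups. The other 4 neutrophil markers, S100a8, S100a9, Cxcr2 and Retnlg, were above vehicle in every imatinib library and highest in imatinib 2, with log2 fold changes of 2.65 to 3.11 that did not pass the test (edgeR adjusted p = 0.0801 to 0.149). Among the 9 endothelial markers only Kdr fell (log2 fold change -0.72, edgeR adjusted p = 0.0445, all genes 8.42%). Pecam1 (0.38, edgeR adjusted p = 0.0788) and Cldn5 (2.08, 0.12) were above vehicle in every imatinib library without passing. No marker of the smooth muscle, glial, epithelial, neutrophil or B and plasma cell lists passed. Outside the neutrophil list, Pdgfrb of the smooth muscle and pericyte list (log2 fold change 1.06, edgeR adjusted p = 0.0832), Krt18 (0.89, 0.0628) and Cd79a (1.03, 0.24) were above vehicle in every imatinib library. Gfap was below vehicle in every imatinib library (-1.27, edgeR adjusted p = 0.176). The sum of 4 mesothelial markers was 0.301 to 0.818 CPM on vehicle and 0.98 to 1.83 on imatinib, with its defining genes Msln and Upk3b at 0.247 CPM or less in every library. Of the 5 γδ T cell markers, summing to 775 to 1480 CPM on vehicle and 1634 to 2372 on imatinib, Trdc and Cd3d rose. The median of all genes moved to -0.72 when libraries were scaled to their CD3 counts instead. On that scale, chosen after seeing the data, the 30 collagens had a median of 0.02, with 16 above and 14 below 0. Over all genes, 0.812% were called higher and 28.1% lower on that scale. Col6a3 and Col8a2 were called higher, Col5a2 no longer passed (log2 fold change 0.66, edgeR adjusted p = 0.171), and Col11a2, Col14a1, Col15a1, Col27a1 and Col9a3 were called lower. The sign changed for Col13a1, Col4a1, Col4a2, Col5a3 and Col8a1, none of them called on either scale. Against the same 0.812% and 28.1%, the pathway lists described further on had 3 genes higher and 5 lower of 23 for synthesis and secretion, 1 and 2 of 9 for processing, 2 and 0 of 9 for proteoglycans, 0 and 4 of 9 for receptors, 0 and 5 of 13 for TGF-β and 1 and 3 of 11 for partners of collagen IV.

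Ratios of counts between chains within a library do not depend on library scaling. Collagen I is built from α1 and α2 chains. Col1a1 per Col1a2 was 1.10, 0.92 and 0.928 on vehicle and 0.754, 1.10 and 0.74 on imatinib, with overlapping groups (exact two-sided permutation test, p = 0.4). Col4a1 per Col4a2 was 1.62, 1.70 and 1.62 on vehicle and 1.54, 1.38 and 1.31 on imatinib. Every imatinib library was below every vehicle library, which gave p = 0.1 in the exact two-sided permutation test, the smallest that 3 against 3 allow, and an adjusted p of 0.4 over the 4 ratios compared. Col3a1 per Col1a1 and Col6a1 per Col6a2 overlapped (exact two-sided permutation test, p = 0.9 and 1).

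A further 5 ratios were chosen after seeing the data. Set against Dcn, the fibroblast proteoglycan decorin, Col1a1 was at 4.64, 3.30 and 4.51 counts per count of Dcn on vehicle and 3.93, 3.39 and 2.63 on imatinib (exact two-sided permutation test, p = 0.3). Col5a2 per Dcn also overlapped (exact p = 0.6). Col14a1 per Dcn was 26.1, 5.63 and 9.92 on vehicle and 1.49, 3.20 and 1.37 on imatinib, lower in every imatinib library (exact two-sided permutation test, p = 0.1, adjusted 0.5 over the 5 ratios). By itself, Dcn was above vehicle and Col14a1 below it in every imatinib library. The separation of this ratio, and with it the p, was therefore fixed before the test and adds nothing about either gene. Per count of C1qa, Col14a1 was at 0.0378, 0.0393 and 0.0450 on vehicle and 0.0579, 0.0366 and 0.0369 on imatinib, with overlapping groups (exact p = 1). Col4a1 per count of Cdh5, the endothelial cadherin, was 4.29, 7.34 and 4.80 on vehicle and 6.22, 5.77 and 6.72 on imatinib (exact p = 0.4).

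The machinery that makes collagen showed 4 genes that rose and none that fell among 23 tested of 24 genes of synthesis and secretion, around a median log2 fold change of 0.21. The background over all genes, 6.15% higher and 8.42% lower, applies to this count and to those of the lists that follow. Serpinh1, the collagen-specific chaperone HSP47, rose from 5.18, 12.3 and 10.3 CPM to 38.3, 16.9 and 36.3 (log2 fold change 1.72, standard error 0.41, edgeR adjusted p = 0.0388). Fkbp10, a prolyl isomerase of collagen folding, rose with a log2 fold change of 2.59 (edgeR adjusted p = 0.0279), from 0.408 to 1.54 CPM on vehicle to 2.82 to 9.71 on imatinib. The lysyl hydroxylase Plod2 (log2 fold change 1.52, edgeR adjusted p = 0.0418) and P3h4, a component of a lysyl hydroxylase complex (2.91, 0.0325), rose too. P3h4 had only 6, 8 and 4 counts on vehicle and 60, 12 and 59 on imatinib. It passed the filter on low counts through the imatinib libraries, so its place among the 4 rests on the group in which it was high. Among genes without a call, the abundant Colgalt1 and P4ha1 were below vehicle in every imatinib library. Their means went from 148 to 97.9 and from 73.5 to 52.0 CPM (log2 fold changes -0.60 and -0.50, edgeR adjusted p = 0.096 and 0.0852). P4ha2, Ppib and Colgalt2 were above vehicle in every imatinib library, also without passing. The summed level of the list did not differ between the groups beyond their spread, at 1114 to 1294 CPM on vehicle and 1099 to 1282 on imatinib.

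Genes that process and crosslink secreted collagen had 4 that rose and none that fell among 9 tested of 13 (all genes 6.15% and 8.42%), with a median log2 fold change of 0.88. Bmp1, which removes the C-propeptide of fibrillar procollagens, rose from 2.04, 1.95 and 2.11 CPM to 5.29, 5.34 and 4.50 (log2 fold change 1.31, standard error 0.28, edgeR adjusted p = 0.020). Its values were nearly the same within each group, and vehicle 1 was not low. Pcolce, the enhancer of that cleavage, rose with a log2 fold change of 1.49 (edgeR adjusted p = 0.0457). The lysyl oxidases Lox (2.29, edgeR adjusted p = 0.0398) and Loxl1 (1.77, 0.0401), which start crosslinking, rose as well. Under CD3 scaling Lox alone of the 4 was still called higher. Among genes without a call, Loxl3, the most abundant of the list on vehicle, was below vehicle in every imatinib library (-0.79, edgeR adjusted p = 0.0692). Adamts2 was above vehicle in every imatinib library (0.55, edgeR adjusted p = 0.146).

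All 9 proteoglycans and fibril regulators lay above 0 (8 of 9 under CD3 scaling), with a median log2 fold change of 1.53, and only Prelp rose (1.70, edgeR adjusted p = 0.0488). The most abundant, Sparc and Bgn, had log2 fold changes of 0.91 and 0.99 (edgeR adjusted p = 0.133 and 0.102). Among 9 tested receptors for collagen, Ddr1, a receptor tyrosine kinase activated by collagen and itself a known target of imatinib, rose from 7.92, 6.27 and 8.27 CPM to 21.0, 12.9 and 12.8 (log2 fold change 1.06, edgeR adjusted p = 0.025). Itga1, the collagen-binding integrin chain found on tissue-resident T cells, fell (log2 fold change -0.48, edgeR adjusted p = 0.0426). Of 13 tested genes from TGF-β to collagen, a pathway that drives collagen transcription in fibroblasts, Skil (-0.98, edgeR adjusted p = 0.00328), Tgfbr1 (-0.65, 0.0213) and Smad7 (-0.65, 0.045) fell, Tgfbr3 rose (1.23, 0.0431), and the median log2 fold change was -0.01. Skil and Smad7 are feedback inhibitors of the pathway. Of 11 partners of collagen IV in basement membranes, the laminin chains Lama1 (2.69, edgeR adjusted p = 0.042) and Lamc1 (1.11, 0.037) rose, the proteoglycan Agrn fell (-0.90, 0.0107), and the median was 0.78.

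The genes outside the family whose profile over the 6 libraries lay nearest to the fibrillar sum were Serpina3n, Igsf10, Sfrp1, Prelp, Nbl1, Nr3c2, Clip3 and Fbn1. Their root mean square difference from it, on centred log2 CPM with a pseudocount of 0.5, was 0.137 to 0.21. Within the family Col1a1 (0.122) and Col6a1 (0.138) were nearest, and Col14a1 (1.24), Col7a1 (1.49) and Col9a3 (1.495) the farthest. The summed Col4 genes had Crip2, Dsc2, Gng11, Hgfac, Lgr4, Sncaip, Hoxb9 and Adtrp as nearest genes, at 0.0933 to 0.172. Fibrillin-1, the product of Fbn1, is a microfibril protein of connective tissue, and Prelp is a collagen-binding proteoglycan of the list above.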

How the data were processed

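The data are read counts per gene of 6 bulk RNA-seq libraries (3 vehicle, 3 imatinib), as deposited by the authors. The authors aligned the reads to mm10 with STAR and counted them with featureCounts (submitters' processing notes name GRCm38). Annotation, strand setting and handling of multiply matching reads are not given in the sources. The table has 57332 rows, of which 3016 without a gene name were dropped, with 0.118% to 0.158% of the counts. Exact repeats (1013) entered once, and 78 symbols with several rows were summed. The 3 columns that match no sample were not used here.

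Genes were filtered by filterByExpr, scaled by TMM and tested for imatinib against vehicle by the robust quasi-likelihood test of edgeR 4.0.16 (R 4.3.3). The same fit was run on simulated counts that varied less between libraries than these data. That run therefore does not gauge the test at the variation seen here. The coefficient of variation between libraries was 29.1%. Depth was 21333897 to 25214210 counts per library. All pairs of libraries differed by more than sampling noise, with a chi-square of 34.1 or more per gene. Chain ratios were compared by exact permutation (scipy 1.17.1). Transcript lengths and positions are from GENCODE M21, by the transcript with the longest coding sequence.

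The collagens and all lists were chosen with earlier results of these data known. Named were all collagens, each library where the mean was at least 10 CPM or the gene was called. Pathway lists gave up to 4 called genes with the largest change, or the 2 of highest mean where fewer than 2 were called, and Ddr1, Itga1 and Prelp come from these lists. Marker lists gave the first 2 genes, and 8 profile neighbours were taken. Dcn, Cd3d, Kdr, Tcfl5, Csf3r, Cxcr2, Retnlg and the libraries of some lower collagens were named outside the rule after their values were seen. So were Colgalt1, Colgalt2, P4ha1, P4ha2, Ppib, Loxl3, Adamts2, Pdgfrb, Krt18, Gfap and Cldn5. Alternatives were RLE factors, library totals, other filters, all named rows, leaving out each library, a replicate block, DESeq2 1.42.0, limma 3.58.1 voom with quality weights, a log2 threshold of 1 and, after seeing the data, CD3 scaling.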

Additional observations from a re-analysis of the deposited data

How the results depend on the processing

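The counts of called collagens were small and moved with the method and with single libraries. Against 2 collagens higher, there were 4 with no filter on low counts (3.68% of all genes), 9 by DESeq2 (6.84% of all genes, 1424; Col16a1, Col19a1, Col1a1, Col23a1, Col5a1, Col5a2, Col6a3, Col6a5 and Col8a2), 7 by voom (7.03%, 1168; Col1a1, Col1a2, Col5a2, Col6a1, Col6a2, Col6a3 and Col8a2), and 0 (without vehicle 3) to 4 (without imatinib 2) when a library was left out. Against 2 lower, there were 1 at a minimum count of 50, where Col9a3 was not tested, 1 beyond a log2 fold change of 1, 5 under CD3 scaling (chosen after seeing the data, 28.1% of all genes), and 0 to 2 when a library was left out. The counts of all genes higher on imatinib (1022) and all genes lower on imatinib (1399) became 182 to 1171 and 503 to 1780 when a library was left out, 304 and 540 beyond a log2 fold change of 1, and 135 and 4678 under CD3 scaling. The cause was not tested. Under CD3 scaling the log2 fold changes of Cdh5 (-0.96) and Trac (-0.13) changed sign. Same-numbered libraries did not deviate together (correlations of -0.21, -0.06 and -0.06 of their deviations from the group means). The labels state no pairing, and with 3 libraries per group these correlations cannot exclude one. With the replicate number as a block, 1 collagen (Col8a2) was higher and 0 were lower, and over all genes 173 were higher and 437 lower. RLE factors, library totals and keeping all named rows left the collagen counts at 2 and 2. The class sums kept their direction with library totals or a library left out. Per CD3 count the log2 ratios of means went from 1.35 to 0.55 (fibrillar), 0.45 to -0.51 (basement membrane), 1.57 to 0.80 (beaded) and -0.32 to -1.10 (other). The ratios could not pass the test at this size. With a library left out, the log2 differences of Col3a1/Col1a1 (-0.14 to 0.21) and Col6a1/Col6a2 (-0.13 to 0.13) changed sign, and those of Col1a1/Col1a2 (-0.39 to -0.10) and Col4a1/Col4a2 (-0.29 to -0.17) did not. Sparse collagens under about 1 CPM limit what can be detected.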
